A study of Mus musculus with 40 samples.

Results

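The genes Parp1, Parp3, Parp8, Parp9, Parp10, Parp11, Parp12 and Parp14 encode members of the ADP-ribosyltransferase family, and Dtx3l the ubiquitin ligase that partners Parp9. They were taken by symbol from a table of 22865 mouse genes, all 9 were found, and Parp10, the 1 gene listed with 2 transcripts, was represented by the transcript with the higher mean RNA-Seq level. The set was named for the interferon response, but 2 of the 9 did not follow it: after 4 hr of the Toll-like receptor 4 ligand KLA, 7 genes rose at least 2-fold, Parp3 stayed under that fold, and Parp1 fell. No library was treated with interferon itself.

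Every library came from macrophages of the mouse peritoneum, collected on day 4 after injection of thioglycollate broth and left to adhere overnight, so all groups share this elicitation. The cells of inbred C57BL6/J and BALBc/J mice received fresh medium (no treatment) or medium with 100 ng/ml of KLA, which is Kdo2-lipid A, a defined lipid of the bacterial outer membrane. PolyA RNA-Seq, which measures mature transcripts, covered no treatment, KLA 1 hr and KLA 4 hr, with 1 library per strain and condition. GRO-Seq, which measures RNA made by engaged polymerases, and ChIP-Seq of PU.1, C/EBPa, H3K4me2 and H3K27Ac covered no treatment and KLA 1 hr, again with 1 library each, and ChIP-Seq of the NF-kB subunit p65 covered KLA 1 hr with 2 replicates per strain. Of 40 samples, 10 expression libraries and 20 peak lists were used, and the remaining 10 samples were not analysed here. The labels give neither the sex or age of the mice nor whether libraries came from separate animals, so every p-value here reflects the spread of these particular libraries, which could be technical in part or whole. With 1 library per strain and condition, the spread in the expression fits also holds any difference in response between the strains. It is not a spread among replicates of 1 condition.

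ADP-ribosyltransferases move ADP-ribose from NAD onto proteins and nucleic acids, and the family splits into enzymes that build chains, such as the DNA damage sensor Parp1, and enzymes that attach single units, such as Parp10, Parp11, Parp12 and Parp14. Several of the latter are induced by type I interferon and restrict viruses, and some viruses carry macrodomains that strip ADP-ribose. Macrophages sense lipid A through Toll-like receptor 4, which activates NF-kB within minutes and also induces interferon beta, which acts back on the same cells through its receptor.

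On the mm9 build, Parp14 lies on chromosome 16 from 35832963 to 35871468 on the minus strand. Dtx3l follows on the minus strand from 35926600 to 35939113, and Parp9 leaves in the opposite direction on the plus strand from 35938555 to 35972707. The spans of Dtx3l and Parp9 share 558 bases at their 5′ ends, and neither the labels nor the headers say whether strand was used in counting, so tags there cannot be told apart. No span of another gene overlaps the other 7 members. Parp11 and Parp12 both lie on chromosome 6, at 127403740 to 127444257 on the plus strand and at 39036410 to 39068348 on the minus strand.

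RefSeq promoter sequences on GRCm38.p6 matched 6 of the 9 genes with 7 starts, and the 250 bases before each start were searched on both strands for the letters of 5 motifs. These windows are shown because 1 of the 2 starts listed for Parp11 held the only interferon-type match, Parp12 rose strongly with none of the 5, and Parp1 was the gene that fell. The core of the interferon-stimulated response element, GAAA, any 2 bases and GAAA again, occurred in 1 of the 7 windows and in 2.98% of the 32851 windows in the table. TTCNNNGAA, the STAT homodimer site, occurred in 1 (7.02% of all), GAGGAAG, the PU.1 site, in 1 (10.6%), GGGA, any 2 bases and TTCC, a kB site, in 0 (1.21%), and TTGCNNCAA, the C/EBP site, in 0 (1.74%). Capitals mark the matches, which in Parp11 are the response element on the strand opposite to the gene, 44 to 35 bases before the start, and the STAT letters, 37 to 29 bases before it, so the 2 overlap. In Dtx3l the PU.1 letters lie on the strand opposite to the gene, 74 to 68 bases before the start. In this gene, whose upstream bases lie inside the span of Parp9 in the mm9 table, only 30 bases around the match are given. A match is a description of letters, and no match says only that these letters are not in this window.
Parp11, chr6:127446590-127446839, plus strand: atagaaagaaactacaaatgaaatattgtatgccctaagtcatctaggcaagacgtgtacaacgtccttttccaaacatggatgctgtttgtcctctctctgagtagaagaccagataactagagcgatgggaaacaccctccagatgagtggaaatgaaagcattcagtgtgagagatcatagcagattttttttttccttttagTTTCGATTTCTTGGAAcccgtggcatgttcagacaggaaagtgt
Parp12, chr6:39118350-39118599, minus strand: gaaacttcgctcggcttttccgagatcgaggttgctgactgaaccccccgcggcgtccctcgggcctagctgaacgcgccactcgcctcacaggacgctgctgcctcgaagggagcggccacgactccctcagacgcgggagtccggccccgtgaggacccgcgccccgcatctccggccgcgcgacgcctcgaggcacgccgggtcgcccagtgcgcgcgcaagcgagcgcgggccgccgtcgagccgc
Parp1, chr1:180568641-180568890, plus strand: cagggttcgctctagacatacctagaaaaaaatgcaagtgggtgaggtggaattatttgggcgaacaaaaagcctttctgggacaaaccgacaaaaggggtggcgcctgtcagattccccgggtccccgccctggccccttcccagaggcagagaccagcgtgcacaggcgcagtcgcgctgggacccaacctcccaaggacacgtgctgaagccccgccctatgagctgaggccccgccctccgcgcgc
Dtx3l, chr16:35939083-35939112, minus strand: ccgtagggaaaCTTCCTCtgagcgcccacc
This Parp11 window had 40.4% G or C and 5 CG dinucleotides, against 73.6% and 41 in Parp12 and medians of 52.4% and 6 over all windows. The other Parp11 start has its window at chr6:127453377-127453626 on the plus strand, with 57.6% G or C, 20 CG dinucleotides and none of the 5 motifs. The table does not tie either start to the Parp11 transcript whose RNA was measured, which starts at 127403740 on mm9. On the same chromosome Parp12 starts at 39068348 on mm9 and has its GRCm38.p6 window from 39118350. With a like shift the measured Parp11 start falls nearer the start without matches. No coordinates were converted, so the marked letters are not shown to lie before that transcript. These windows are on another build than the peaks and were not placed against them.

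The RNA-Seq libraries held 17 to 20.3 M tags, the GRO-Seq libraries 39.4 to 48.3 M and the ChIP libraries 7.1 to 14.4 M. All 9 macrophage markers in the table were tested, with summed levels of 79628 to 106218 tags per 10 M. Summed markers of other blood cells stayed at or below 342 tags per 10 M, with the eosinophil gene Epx and the erythroid gene Hba-a1 at 0 in every RNA-Seq library. The 10 markers of mesothelial cells and fibroblasts summed to 2028 to 4699, were lowest in C57BL6/J, and none was at 0. In such bulk libraries, fewer cells of a type and less RNA per cell cannot be told apart.

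After 4 hr of KLA, mature transcripts of Parp14, Dtx3l, Parp9, Parp12, Parp8, Parp10 and Parp11 rose, by 3.38- to 23.5-fold on the scale of tags per 10 M plus 10. Parp1 fell to 0.266 of its untreated level. A gene was called at a Benjamini-Hochberg adjusted p under 0.05 in limma, fitted over all tested genes with a term for strain, and a log2 change of at least 1. Of the 9 genes, 7 were called higher, against 8.1% of the 10692 genes tested, and 1 was called lower, against 21.3%. The members, and the gene lists used below, were chosen with earlier results of these data known. Counts set against all genes are therefore a description and no test of the family or of a list. The median change of the members was 2.09 on the log2 scale and that of all tested genes -0.47. With each library centred on its median gene the calls of the members were again 7 and 1, against 11.7% and 9.74% of all genes, and their median was 2.52. Markers of T and NK cells summed to 8.83 to 21.3 tags per 10 M before 4 hr and to 189 and 241 at 4 hr, where Lck was the 1 of 7 that passed the filter and was called higher (3.67 ± 0.21). Of the other lists of blood cells, neutrophil S100a8 (1.08 ± 0.20) and dendritic cell Ccr7 (1.70 ± 0.21) were called higher at 4 hr, and mast cell Cpa3 (-1.26 ± 0.20) lower. Only 1 of 5 neutrophil, 2 of 5 dendritic cell and 2 of 6 mast cell markers passed the filter. The summed neutrophil markers were 134 and 78.5 without treatment and 342 and 152 at 4 hr in C57BL6/J and BALBc/J. S100a8 alone made 131 and 77, then 341 and 147 of these, so the sums are mainly 1 gene. The sums of dendritic cell markers were 45.9 and 56.2 against 117 and 150, and those of mast cells 56.5 and 81.7 against 21.2 and 29.9. The part of such cells in the 4 hr results was not tested.

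Parp14, a large enzyme with macrodomains that bind ADP-ribose, made the largest change of the 9. In C57BL6/J its RNA-Seq level was 503 tags per 10 M without treatment, 479 at 1 hr and 8719 at 4 hr, and in BALBc/J it was 490, 439 and 16181. Both 4 hr libraries stood far above the other 4, and the rise was 4.55 ± 0.26 (SE) on the log2 scale (limma, adjusted p = 7.82e-06).

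Dtx3l, its neighbour on chromosome 16, stood at 263, 246 and 2960 tags per 10 M in C57BL6/J and at 285, 177 and 4714 in BALBc/J. Its rise at 4 hr was 3.72 ± 0.26 (limma, adjusted p = 2.40e-05). The partner gene Parp9, which carries macrodomains, had levels of 369, 392 and 4017 in C57BL6/J and 495, 406 and 4590 in BALBc/J. Its rise was 3.30 ± 0.18 (limma, adjusted p = 6.29e-06). In both genes the 2 libraries of 4 hr lay above all others with no overlap.

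Parp12, a zinc-finger enzyme with antiviral activity, rose from 487 (C57BL6/J) and 628 (BALBc/J) tags per 10 M without treatment to 4272 and 5084 at 4 hr, with 464 and 539 at 1 hr. The change was 3.05 ± 0.17 (limma, adjusted p = 6.51e-06), and its SE was the smallest of the 9. Its 1 hr and untreated libraries overlapped, and both 4 hr libraries lay above them.

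Smaller rises were found for 3 further enzymes of the mono-ADP-ribosyltransferase group. Parp10, first described as a partner of Myc, went from 200, with 113 at 1 hr, to 731 at 4 hr in C57BL6/J and from 195, with 143 at 1 hr, to 978 in BALBc/J, a change of 2.04 ± 0.19 (limma, adjusted p = 1.02e-04). Parp8 had 105, 105 and 552 tags per 10 M in C57BL6/J and 118, 131 and 468 in BALBc/J, a change of 2.09 ± 0.20 (limma, adjusted p = 1.12e-04). Parp11 had 114, 74.5 and 351 in C57BL6/J and 136, 99.9 and 564 in BALBc/J, a change of 1.76 ± 0.20 (limma, adjusted p = 2.22e-04). Parp8 was the one member that rose whose 4 hr level was lower in BALBc/J than in C57BL6/J.

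The other 2 members, Parp3 and Parp1, did otherwise. Parp3 had 141, 125 and 209 tags per 10 M in C57BL6/J and 189, 158 and 281 in BALBc/J, and its 4 hr libraries lay above the untreated ones, but the change of 0.54 ± 0.18 was under 2-fold (limma, adjusted p = 0.0327). Parp1 had 587, 392 and 131 in C57BL6/J and 600, 436 and 173 in BALBc/J. Its fall was 1.91 on the log2 scale, with an SE of 0.18 (limma, adjusted p = 1.08e-04), and its libraries of the 3 conditions did not overlap.

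**Figure D1:**
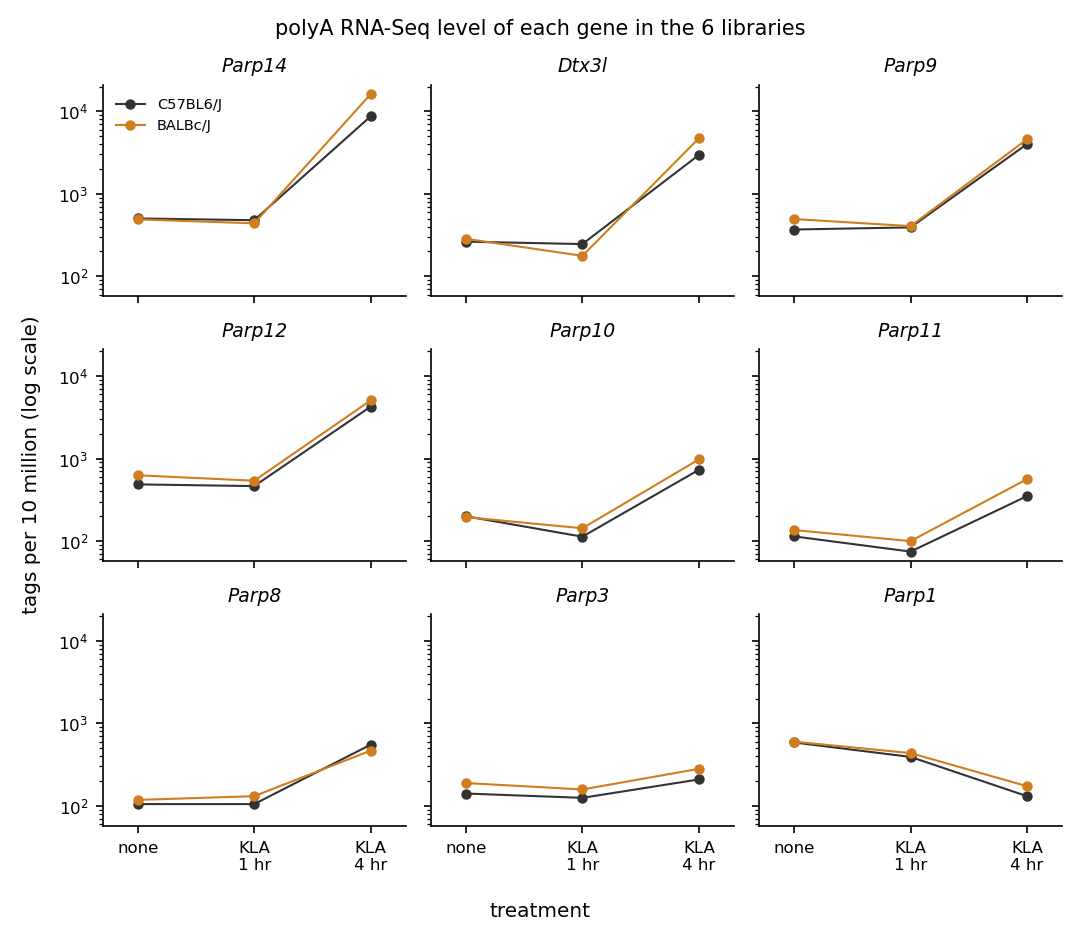
RNA-Seq level in tags per 10 M (vertical log axis) of each gene without treatment and after 1 hr and 4 hr of KLA, with 1 point per library, C57BL6/J in dark grey and BALBc/J in orange. The 4 hr points of Parp14 sit at 8719 and 16181, far above its other 4 libraries, whereas those of Parp1 fall to 131 and 173.

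Per kilobase of mRNA, the only scale on which levels of different genes are set side by side here, the order of the 9 genes changed with treatment. Without treatment Parp1 (153 in C57BL6/J and 157 in BALBc/J) and Parp12 (151 and 194 tags per 10 M per kilobase) had the highest levels and could not be separated. Parp9 followed at 104 and 139. Parp14 (69.4 and 67.6), Parp3 (53.5 and 71.7), Parp10 (59 and 57.3) and Dtx3l (50.7 and 55) came next, with Parp3 overlapping the other 3. Parp8 (34.1 and 38.2) and Parp11 (30.7 and 36.5) had the lowest untreated levels, and their ranges overlapped. At 4 hr Parp14 (1203 and 2231), Parp12 (1323 and 1574) and Parp9 (1127 and 1288) had the highest levels. Parp14 overlapped both others, and both Parp12 values lay above both of Parp9. They were followed by Dtx3l at 571 and 910. Parp10 (215 and 288) stood above Parp8 (179 and 152), whose lower value lay just above the higher one of Parp11 (94.4 and 151), and Parp3 (79.5 and 107) overlapped Parp11. Parp1 was now the lowest of the 9, at 34.3 and 45.1.

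At 1 hr of KLA no member was called in RNA-Seq in either direction (limma), against 1.82% of genes called higher and 1.43% called lower. Unadjusted p-values were under 0.05 for 3 members, Parp10 (-0.60 ± 0.19, adjusted p = 0.132), Parp1 (-0.51 ± 0.18, adjusted p = 0.157) and Parp11 (-0.48 ± 0.20, adjusted p = 0.194). All 3 had lower levels in both strains, and the changes of the other 6 ran from -0.38 to 0.06. The members' median change of -0.20 was close to the -0.21 of all genes, and after centring the members' median was 0.01. Relative to 1 hr, the 4 hr libraries gave the same 7 calls higher and 1 lower, against 8.67% and 13.5% of genes. Parp10 (2.64) and Parp11 (2.24) changed more against 1 hr than against no treatment, whereas Parp8 (2.03) and Parp1 (-1.40) changed less. The contrasts share libraries and are no independent evidence for each other.

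Nascent RNA at 1 hr split the genes in another way. Parp14 had 222 and 231 GRO-Seq tags per 10 M without treatment in C57BL6/J and BALBc/J, and 864 and 849 after KLA. Parp1 dropped from 82.1 to 13.2 in C57BL6/J and from 51.1 to 19.5 in BALBc/J. In both genes the treated and untreated libraries did not overlap, nor did they in Parp9, Dtx3l, Parp11 and Parp12. The share of all genes without such overlap was not counted.

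Parp14 was called higher, with a change of 1.87 ± 0.29 (limma, adjusted p = 3.27e-09), and 4.31% of the 9110 genes tested were called so. Parp1 was called lower, at -1.52 ± 0.34 (limma, adjusted p = 8.87e-05), against 15.5% of genes. The median change was 0.27 for the members and -0.34 for all tested genes, and with libraries centred on the median gene it was 0.62 for the members, with 6.78% of genes called higher and 7.08% lower. With 4 libraries the fit had 1 residual degree of freedom and took each gene's spread from the trend over all genes. Without the filter on low values, no gene of the table was called in this contrast, neither Parp14 (adjusted p = 0.231) nor Parp1 (adjusted p = 0.292), and the call of Parp1 was also lost at a pseudocount of 50, where its change was -0.80.

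Dtx3l and Parp9 had higher GRO-Seq levels after KLA in both strains, Dtx3l at 70.4 and 119 in C57BL6/J and 81.3 and 150 in BALBc/J, and Parp9 at 82.8 and 130 in C57BL6/J and 98.7 and 167 in BALBc/J. Neither was called, with changes of 0.75 ± 0.34 (limma, adjusted p = 0.0885) and 0.65 ± 0.34 (limma, adjusted p = 0.143). After centring on the median gene, Dtx3l was called at 1.10 ± 0.16 (limma, adjusted p = 9.68e-11).

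Parp12 and Parp11, both strongly raised in RNA-Seq at 4 hr, had lower GRO-Seq levels at 1 hr. Parp12 went from 113 to 54.3 in C57BL6/J and from 108 to 88 in BALBc/J, a change of -0.60 ± 0.35 that was not called (limma, adjusted p = 0.196). Parp11 went from 44.7 to 20.2 and from 36.8 to 16.6, and its change of -0.84 ± 0.32 passed the p threshold (limma, adjusted p = 0.0316) but not the 2-fold rule. In Parp11 and Parp12 alike, the treated libraries lay below the untreated ones with no overlap.

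The GRO-Seq levels of the other 3 members were not called. Parp8 went from 55.4 to 64.2 in C57BL6/J and from 32.1 to 44 in BALBc/J, with a mean change of 0.27 ± 0.36. Parp3 was at 44.2 and 47.3 in C57BL6/J and at 65 and 122 in BALBc/J, a mean change of 0.45 ± 0.36. Parp10 went from 110 to 83.9 in C57BL6/J and from 77 to 118 in BALBc/J, a mean change of 0.10 ± 0.34. None of these 3 had an adjusted p under 0.05 in limma.

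**Figure D2:**
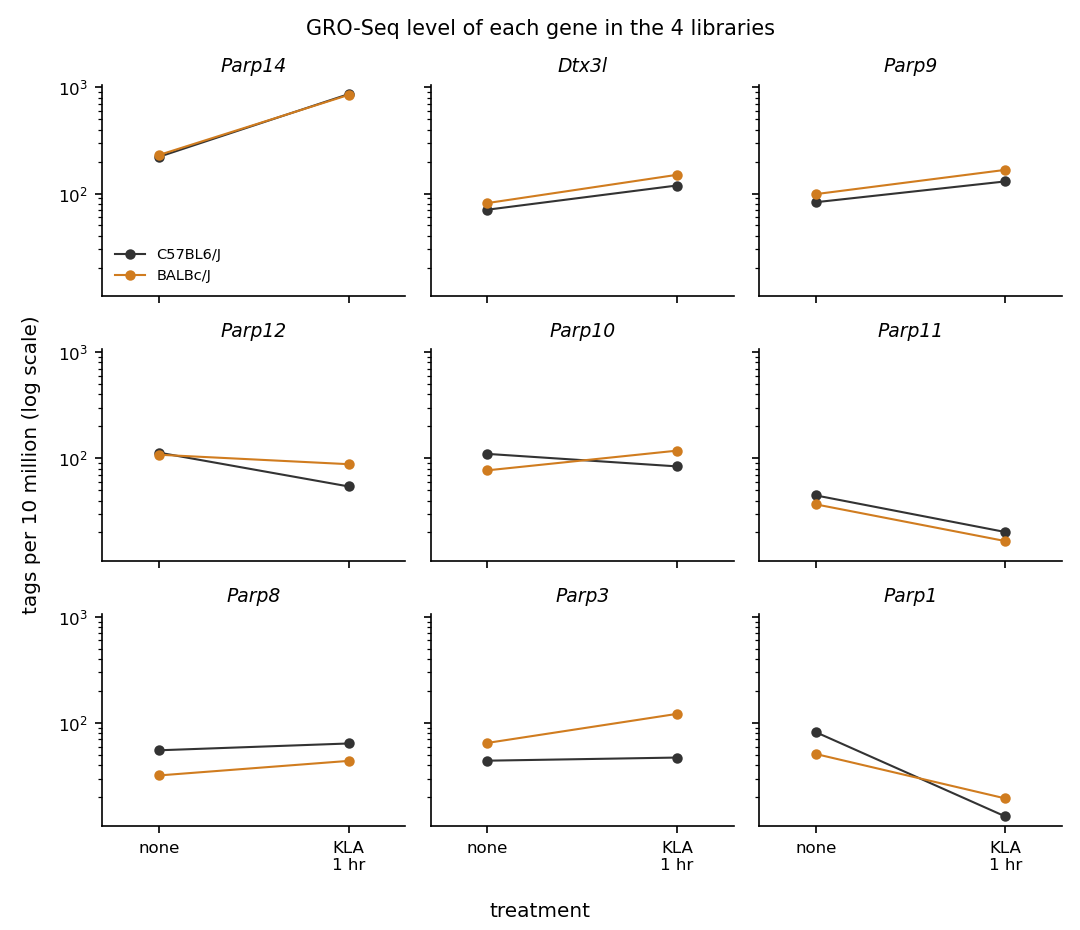
GRO-Seq level in tags per 10 M (vertical log axis) of each gene without treatment and after 1 hr of KLA, with 1 point per library, C57BL6/J in dark grey and BALBc/J in orange. Parp14 rises to 864 and 849 and Parp1 drops to 13.2 and 19.5, while the lines of Parp10 run in opposite directions in the 2 strains.

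**Figure D3:**
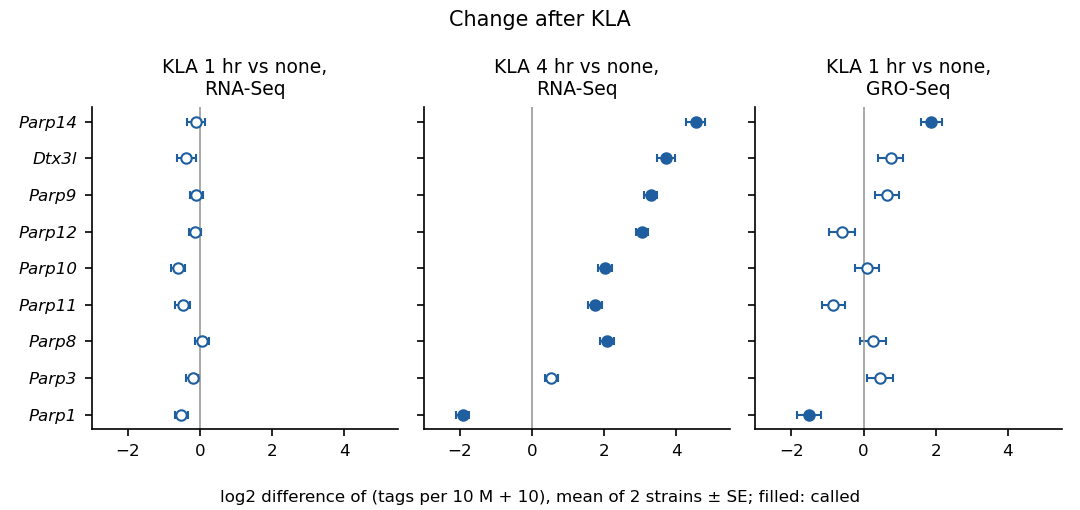
Log2 change after KLA of each gene in 3 comparisons, mean of both strains with the SE from limma as bars, filled where called. At 4 hr in RNA-Seq 8 points are filled, at 1 hr in RNA-Seq none, and at 1 hr in GRO-Seq those of Parp14 and Parp1.

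Set side by side, the nascent and mature readouts placed 8 of the members in 3 patterns, counted over the 8383 genes tested in both assays. Parp14 was called higher in GRO-Seq at 1 hr and in RNA-Seq at 4 hr but not in RNA-Seq at 1 hr, as were 163 genes in all (1.94%). Parp1 had the mirror pattern of lower calls, shared by 763 genes (9.1%). Parp8, Parp9, Parp10, Parp11, Parp12 and Dtx3l were called higher in RNA-Seq at 4 hr and not called in GRO-Seq at 1 hr, as were 360 genes in all (4.29%). Parp3 was called in neither assay. GRO-Seq at 4 hr was not analysed here, so these 6 have no nascent value at the time their mature RNA was high.

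No member was called between the strains, in RNA-Seq (limma, against 2.52% of genes higher in BALBc/J and 1.19% lower) or in GRO-Seq (0.494% and 0.417%). Unadjusted p-values were under 0.05 for Parp11 (0.43 ± 0.16, adjusted p = 0.173) and Parp3 (0.38 ± 0.15, adjusted p = 0.191) in RNA-Seq, and for Parp3 in GRO-Seq (0.83 ± 0.36, adjusted p = 0.518). The level of Parp3 was higher in BALBc/J in all 5 pairs of libraries, by 1.27 to 2.57 times. That of Parp9 was so too, by 1.04 to 1.34 times. The share of all genes higher in every pair was not counted. The median strain difference of all tested genes was 0.08 in RNA-Seq and 0.22 in GRO-Seq. The mesothelial and fibroblast markers, which were 2028 to 3035 in C57BL6/J and 3992 to 4699 in BALBc/J with 4 of 10 called higher, move with strain, and their part in these values was not tested.

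The size of the 4 hr response also differed between the strains, without a test because each cell of that comparison is 1 library. Tags of Parp14 at 4 hr were 17.3 times the untreated level in C57BL6/J and 33 times in BALBc/J, a difference of 0.93 on the log2 scale. The ratios of Dtx3l were 11.3 and 16.5 (0.56 apart on the log2 scale). In the other direction, the ratios were 10.9 and 9.27 for Parp9, 8.77 and 8.1 for Parp12, and 5.24 and 3.96 for Parp8. None of the 9 reached a difference of 1 log2 unit against no treatment, which 3.4% of genes did toward BALBc/J and 1.28% toward C57BL6/J. Against 1 hr, Dtx3l (1.12) and Parp14 (1.01) passed it toward BALBc/J, as did 8.33% of genes, and no member passed it toward C57BL6/J (1.76%). In GRO-Seq, where the ratios of Parp14 were 3.89 and 3.67, no member passed it (4.04% and 0.274% of genes), nor did any in RNA-Seq at 1 hr (0.215% and 0.234%).

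After KLA, p65 was found at 96 loci within 50 kb of a member's start, and 45 of these held a peak in all 4 lists. A locus joined peaks whose centres lay within 100 bases, and 59 of the 96 had a member as their nearest start. The strongest locus with Parp14 as its nearest start lay 2.1 kb inside the gene, with 566.5 and 823.6 tags per 10 M in the C57BL6/J replicates and 585.2 and 741.4 in BALBc/J. No p65 list had a peak within 1 kb of the start of Parp14. The replicates of each strain differed by more than the strains at this locus.

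Other members had p65 at or near the start. Parp3 had 217.1 and 292.2 tags per 10 M in C57BL6/J and 256.1 and 266.7 in BALBc/J, centred 19 bases before its start. The start of Rrp9 is close by, as a C/EBPa locus 420 bases before Parp3 was nearer to Rrp9. Distance thus does not assign this p65 peak to Parp3 alone. Parp10 had 208.1, 211.6, 167 and 150.7 in the same order at 236 bases inside the gene, so both BALBc/J values lay below both C57BL6/J values. Parp8 had 308.3, 390.1, 256.1 and 263.5 at 4.78 kb inside the gene, again with BALBc/J lower and no overlap.

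The start shared by Dtx3l and Parp9 had weaker peaks, with 38.3, 56.1, 22 and 36.3 tags per 10 M at 11 bases before Parp9. A locus 1.38 kb before Parp9, which is 1.94 kb inside Dtx3l, had 102.3, 124, 115 and 85.4. A stronger peak lay 19.2 kb before Parp9, inside the region that also falls within 50 kb of Parp14, with 201.1, 160.3, 139 and 144.3. Parp11 had 39, 95.5, 45 and 51.6 at 188 bases before its start. Parp12 had no p65 peak within 1 kb of its start in 3 of 4 lists and 21.3 in the other. Its strongest locus within 50 kb, at 158, 157.1, 199.1 and 165.2, lay 47.7 kb before the start, nearer to Jhdm1d.

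Parp1, which fell, also had p65 close by, with 315.2, 343.5, 319.1 and 294.2 tags per 10 M at 18.9 kb inside the gene. Strong p65 was also listed at 2 loci at 39.2 and 24.2 kb from Parp10, with 666.7, 867, 713.2 and 776.9 and with 505.2, 578.8, 451.1 and 364.3. Their nearest start was that of Mir1942, so distance does not assign them to Parp10.

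A p65 peak within 1 kb of the start was listed for 7, 8, 7 and 7 of the 9 members. These are the 2 C57BL6/J and then the 2 BALBc/J lists, against 61.1%, 64.5%, 52.3% and 46.1% of the tested genes. A peak near the shared start of Parp9 and Dtx3l counts for both genes, here and for the other factors and marks. Of the 45 loci in every list, both BALBc/J values lay below both C57BL6/J values at 19, against 39.3% of all 36541 such loci, and above them at 3, against 5.97%. With 2 replicates per strain the smallest two-sided p of an exact permutation test of 1 locus is 0.333. A limma fit over all these loci, added after the data were seen, called none of the 45 in either direction (0.602% of loci higher in BALBc/J and 1.6% lower), with 6 at an unadjusted p under 0.05 and a median of -0.40 against -0.32 for all loci. The lists of BALBc/J were called against a C57BL6/J input. Lists of p65 without KLA were not analysed here.

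**Figure D4:**
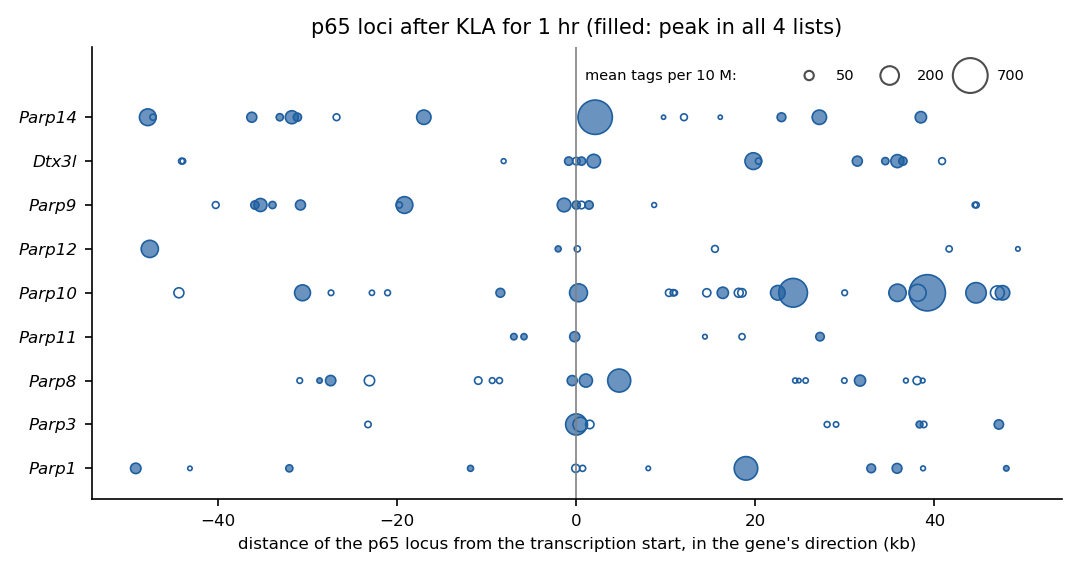
Position of p65 loci after 1 hr of KLA within 50 kb of each start, in kb along the gene's direction, with the circle area giving the mean tags per 10 M over the lists that hold the peak. Filled circles are the loci in all 4 lists, and the large circle just inside Parp14 is the locus at 2.1 kb.

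PU.1, a factor that marks macrophage enhancers, had 101 loci within 50 kb of a member, 44 of them in all 4 lists. A PU.1 peak lay within 1 kb of the start of 8 members in both C57BL6/J lists (74.3% of genes without and 76% with KLA), and of 7 and 8 in BALBc/J (74.2% and 76.2%). Inside Parp14 and at its start, 3 of these had higher values after KLA in both strains. At 27.2 kb inside the span the values went from 73.3 to 224.3 tags per 10 M in C57BL6/J and from 95 to 177.8 in BALBc/J. At the p65 locus 2.11 kb inside the gene they went from 34.6 to 82.5 and from 44.4 to 73, and at the start itself from 40.1 to 66 and from 35.2 to 58.7. None of these 3 was 2-fold higher in both strains. The share of all PU.1 loci with any rise in both strains was not counted.

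Over all 44 loci, 3 were at least 2-fold higher after KLA in both strains, against 2.03% of PU.1 loci in every list, and 1 was as much lower, against 2.68%. The first 3 lay 49.2 and 32 kb before Parp1 (44.3 to 110.5 and 55.3 to 112.2 tags per 10 M in C57BL6/J, 39.8 to 125.4 and 52.1 to 104.8 in BALBc/J) and 25.6 kb inside Parp8 (11.1 to 37.9 and 12.3 to 33.3). The lower one lay 38.7 kb from the start of Parp1, at 88.5 to 34.6 and 91.9 to 25.4. The locus at 49.2 kb was nearest to the start of 6330403A02Rik and the lower one to that of Lin9.

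C/EBPa, the second lineage factor profiled, had 80 loci near the members, 26 of them in every list. It lay within 1 kb of the start of 4 members in both C57BL6/J lists (52.4% of genes without and 53% with KLA), and of 4 and 3 in BALBc/J (58.1% and 53.9%). None of the 26 was at least 2-fold higher in both strains (4.61% of all C/EBPa loci in every list), and 1 was as much lower (5.36%), 26.5 kb before Parp10 and nearest to Spatc1, at 204.4 to 89.6 and 273.6 to 128.6. At the p65 locus 4.77 kb inside Parp8, C/EBPa was listed only after KLA, with 61 in C57BL6/J and 49.9 in BALBc/J.

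H3K27Ac, a mark of active promoters and enhancers, was listed over the start of all 9 genes without treatment, where a region counted if it touched 1 kb on either side. Most genes had this too, 8936 of the 10692 tested in RNA-Seq. Parp14 went from 511.3 to 1041 tags per 10 M in C57BL6/J and from 494.3 to 1219 in BALBc/J, while the covered length grew from 3.85 to 5.21 kb and from 4.2 to 6.46 kb. Per kilobase its values were 133 and 200 in C57BL6/J and 118 and 189 in BALBc/J, which is under 2-fold. By summed tags, which move with the length called, Parp14 was the 1 member at least 2-fold higher in both strains, against 3.21% of the 8441 genes with a region in every list, and no member was as much lower, against 10.8%. Per kilobase no member was 2-fold higher in both strains.

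Parp1 had an H3K27Ac region of 89.8 tags per 10 M over 1.72 kb in C57BL6/J and of 147.5 over 1.91 kb in BALBc/J without treatment, and none after KLA in either strain. Of the 8936 genes with a region in both untreated lists, 1.54% were listed in neither KLA list. A region that is not listed is below the authors' threshold and is not shown to be 0.

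Among the others, summed tags and tags per kilobase did not always move together. Parp12 went from 209.1 to 306.4 in C57BL6/J and from 249.8 to 275.4 in BALBc/J while its region shortened from 3.56 to 2.71 kb and from 3.96 to 2.23 kb, so its values per kilobase went from 58.8 to 113 and from 63.1 to 124. The region shared by Parp9 and Dtx3l went from 223.8 to 350.4 and from 194 to 302.3, but per kilobase from 130 to 153 in C57BL6/J and from 104 to 91.3 in BALBc/J. Parp3, whose start lies close to that of Rrp9, went from 65.3 to 142.2 and from 152.8 to 194.7. Per kilobase it went from 29.1 to 59.2 in C57BL6/J and from 101 to 68.4 in BALBc/J. For these 2 regions the strains thus differed in direction per kilobase.

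Parp8 had higher values after KLA on both scales, from 150.3 to 259.5 and from 101 to 219 in sum and from 56.1 to 86.8 and from 42.8 to 71.7 per kilobase. Parp10 did too, from 165 to 263.9 and from 156.8 to 262.6 in sum and from 108 to 129 and from 89.2 to 130 per kilobase. Parp11 had lower values on both, from 138.8 to 121.7 and from 200.7 to 117.8 in sum and from 99.9 to 74.5 and from 112 to 79.4 per kilobase. H3K4me2 was listed over all 9 starts in all 4 lists, as it was for 9995 of the 10692 genes tested in RNA-Seq. No member changed 2-fold in both strains in either direction (0.15% of genes higher and 0.11% lower). Per kilobase of listed region, untreated H3K4me2 was 717 and 659 tags per 10 M at Parp14 and 288 to 518 at the other starts.

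**Figure D5:**
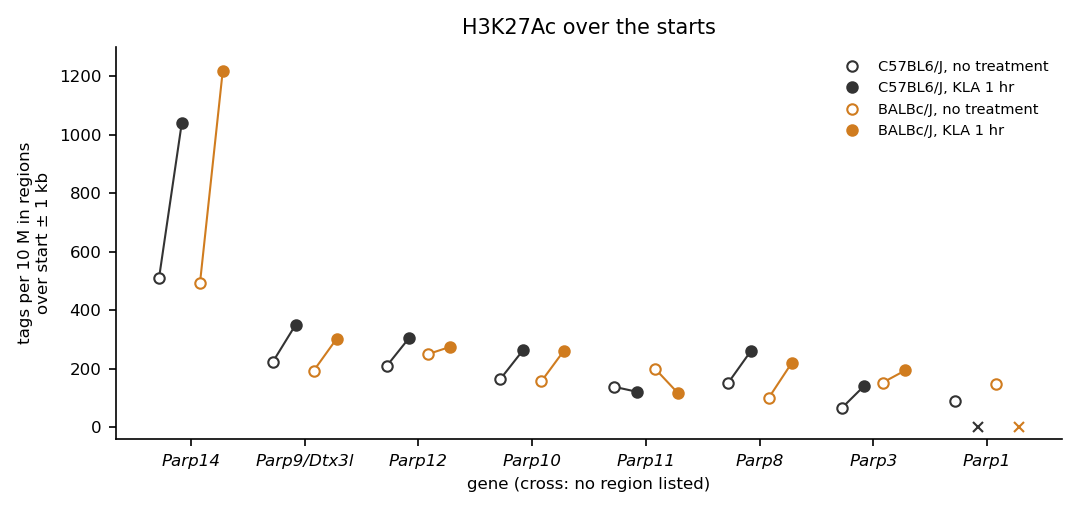
H3K27Ac tags per 10 M in regions over each start, before (open) and after (filled) 1 hr of KLA, C57BL6/J in dark grey and BALBc/J in orange, with 1 library per point. After KLA Parp14 stands at 1041 and 1219, and Parp1, marked by crosses, has no listed region after KLA.

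As a description of shared patterns, each member was set against all tested genes by the root mean square difference of its centred log2 levels over the 6 RNA-Seq libraries. The nearest gene to Parp9 among 10691 others was Parp12 (0.12), although they lie on different chromosomes. Parp10 and Parp11 were close to each other (0.20), at place 10 and 14 of each other's order. Dtx3l was at place 18 for Parp14 (0.37) and place 60 for Parp9 (0.36). The nearest genes to Parp14 were Tgtp2 (0.141), Gbp7 (0.158) and Olfr56 (0.228).

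For Dtx3l the nearest were Met (0.110), Dennd3 (0.118) and the RNA sensor gene Ddx58 (0.218). For Parp10 they were Mov10 (0.126), the RNA-editing enzyme gene Adar (0.139) and Rnf31 (0.141), and for Parp11 Pcdh7 (0.038), Asap3 (0.137) and Rnf31 (0.167). For Parp12 they were Upp1 (0.078), Parp9 (0.119) and Mitd1 (0.130), and after Parp12 the nearest to Parp9 were Jak2 (0.135) and Gm4902 (0.142). For Parp8 they were Phf11, Ogfr and Vasp (0.064 to 0.083), for Parp3 Ppfibp1, Lrrc59 and Farsa (0.044 to 0.078), and for Parp1 Dyrk1b, Lims2 and Zer1 (0.068 to 0.079). These points share libraries and 1 dominant step at 4 hr.

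The rest of the ADP-ribosyltransferase family behaved in several directions. Of 8 other genes of the family, 2 were called higher at 4 hr in RNA-Seq, against 8.1% of all genes. They were Tiparp (1.52 ± 0.20) and the antiviral zinc-finger gene Zc3hav1 (1.17 ± 0.16). Parp16 (-2.15 ± 0.19) was the 1 called lower, against 21.3% of all genes. The median of the 8 was -0.65 against -0.47 for all genes. In GRO-Seq at 1 hr Parp2 (-1.57 ± 0.35), the close relative of Parp1 in DNA repair, and Tnks (-1.01 ± 0.34) were called lower and none higher. Of all genes 15.5% were called lower and 4.31% higher, and 8 genes are too few to read 2 lower calls as a family result. Among 9 tested erasers and readers of ADP-ribose, none was called higher at 4 hr and 2 lower, Nudt16 (-1.98 ± 0.24) and Aplf (-1.68 ± 0.21), with 7 not called. The share lower is near the 21.3% of all genes, and the list's median of -0.47 equals theirs. Of 3 tested relatives of Dtx3l, Dtx2 was called higher at 4 hr (1.65 ± 0.19) and Dtx3 lower (-1.18 ± 0.17). The shares of all genes were 8.1% and 21.3%.

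The substrate of ADP-ribosyltransferases is NAD. Among 13 tested genes that make or use it, 2 were called higher at 4 hr and 4 lower, against 8.1% and 21.3% of genes. Their median was -0.39 against -0.47 for all genes. The higher ones were Cd38, an ectoenzyme that breaks down NAD (3.73 ± 0.28), and Nampt, which salvages it from nicotinamide (1.85 ± 0.17), and the largest falls were those of Nmnat3 (-1.82 ± 0.19), Nmrk1 (-1.47 ± 0.21) and Sirt3 (-1.14 ± 0.21). Of 14 genes of interferon beta and its receptor pathway, 11 were called higher at 4 hr, against 8.1% of all genes. The largest rises were those of Isg15 (5.92 ± 0.37), Usp18 (5.51 ± 0.33) and Socs1 (5.37 ± 0.27). At 1 hr 3 of these 14 were called higher, against 1.82% of all genes, when no member was. They were Ifnb1 (5.13 ± 0.38), Irf1 (3.65 ± 0.23) and Isg15 (2.54 ± 0.37). Between 1 hr and 4 hr, 9 of the 14 were called higher and 1 lower, against 8.67% and 13.5% of genes. The lower one was Ifnb1 (-3.67 ± 0.38). Of 11 tested DNA repair partners of Parp1 and Parp3, none was called higher at 4 hr and 3 lower, Xrcc1 (-2.21 ± 0.20), Prkdc (-1.32 ± 0.25) and Xrcc6 (-1.10 ± 0.22), against 21.3% of all genes. The median of these 11 was -0.80.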

How the data were processed

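Gene-level tags were deposited by the authors as log2 values of tags per 10 M over the exons of each RefSeq transcript, per the file headers. Their part below 1 tag averaged 0.49 to 0.51 and was removed by rounding down to whole tags. Peak lists hold the authors' signal, tags per 10 M in each peak, and a fold over an input as a ratio, both called per library by HOMER, per the file headers. The headers also show that all 4 p65 lists used the C57BL6/J input. Bowtie 0.12.7, HOMER and mm9 are named in the submitters' processing notes. For strand use in counting, no statement was found in the labels or headers.

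Genes with at least 20 tags per 10 M in 2 libraries were tested on log2(tags per 10 M + 10) with limma 3.58.1 (R 4.3.3), with terms for strain and treatment, a variance trend, and Benjamini-Hochberg adjustment over all tested genes. The strains serve as the replicates of a treatment. This scale understates the change of low genes. The procedure was tested on simulated data. Peaks within 50 kb of a start were kept, and peak centres within 100 bases formed a locus. The p65 loci in every list were compared between strains with limma on log2 tags, an analysis added after the data were seen. Python 3.11.15, numpy 2.4.6, pandas 2.3.3 and matplotlib 3.10.9 were used.

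The members and gene lists were chosen with earlier results of these data known. Named genes are all members, up to 3 called genes per list, direction and comparison with the largest change, and the 3 genes most like each member. Oard1, Adgre1 (listed as Emr1), Trbc2 and Ly6g did not match a symbol in the table. Other pseudocounts, filters, centring, transcripts, windows and left-out libraries were tried.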

Additional observations from a re-analysis of the deposited data

Results flagged for a closer look

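For 3 results the 2 strains had changes of opposite sign after 1 hr of KLA, with 1 library per strain and condition, and the difference was not tested. For Parp10 the GRO-Seq change was -0.35 on the log2 scale in C57BL6/J and 0.56 in BALBc/J. For Parp9 the RNA-Seq change was 0.08 in C57BL6/J and -0.28 in BALBc/J. For Parp8 the RNA-Seq change was -0.01 in C57BL6/J and 0.14 in BALBc/J.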

How the results depend on the processing

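The 7 higher calls and 1 lower call at 4 hr in RNA-Seq, and the absence of calls at 1 hr and between strains, did not move beyond 1.5 times under any alternative run, including leaving out each RNA-Seq library, where the counts stayed at 7 and 1. The GRO-Seq calls depend on the settings: 2 members were higher with libraries centred on the median gene and 0 with no filter. With no filter and with a pseudocount of 50, 0 were lower. With a filter of 100 tags per 10 M (5 members left) 0 were lower too. That filter removed Parp1, whose highest GRO-Seq level was 82.1, so its call could not recur there. The causes of the other changes were not tested. Without a filter no gene of the table was called in GRO-Seq.

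Uncalled changes near 0 reversed. At 1 hr in RNA-Seq centring gave 0.01 for Parp3, 0.12 for Parp9, 0.07 for Parp12 and 0.10 for Parp14. Leaving out 1 library in turn gave -0.10 to 0.23 for Parp8, -0.24 to 0.05 for Parp9 (positive without either of 2 BALBc/J libraries, 0.03 and 0.05), -0.39 to 0.16 for Parp14 (also 0.10) and -0.80 to 0.05 for Dtx3l. Between strains in RNA-Seq, Parp8 was -0.03 after centring and -0.04 to 0.22 with 1 library left out, Parp14 was -0.08 to 0.43 and Dtx3l -0.17 to 0.39, negative without either 4 hr library. In GRO-Seq Parp14 was -0.21 after centring.

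The p65 loci in every list numbered 19 within 20 kb, 29 from peaks of at least 30 tags per 10 M, and 45 to 55 with 1 replicate left out. Mean peaks per list near members (50 kb: PU.1 67.2, C/EBPa 49, p65 68.8, H3K4me2 52.8, H3K27Ac 33.5) were 28.2, 21.8, 30, 26 and 18 within 20 kb and 112, 76.8, 107, 85.5 and 51.5 within 100 kb, and with at least 8 times the input 35 for H3K4me2 and 21.2 for H3K27Ac. A limma fit of p65 with the replicate block was added after the data were seen. It called 2 of the 45 member loci lower in BALBc/J (6.5% of all loci) and 0 higher (1.44%). Without the block it called 0 and 0. The 2 loci lay 32.9 kb downstream of the start of Parp1, past the end of its span (-1.05), and 6.99 kb before Parp11 (-1.04). Replicates 1 and 2 share only a number in the labels, although their deviations correlated at 0.65 across loci. Centred on the median locus the fit again called 0 and 0, with a median of -0.03 for the members. The expression fits carry strain as a term, which pairs the libraries by strain. RNA-Seq had 2 residual degrees of freedom and GRO-Seq 1, and low tag counts limit the GRO-Seq values of Parp1 and Parp11 after KLA, of 55 to 84 tags.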
